A study of Mus musculus with 208 samples.

Results

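The lipid droplet coat genes described here are 10 genes whose proteins sit on the surface of lipid droplets or act there on the lipase that empties them. They are the 5 perilipins (Plin1, Plin2, Plin3, Plin4 and Plin5), the 3 Cide genes (Cidea, Cideb and Cidec) and the inhibitors of adipose triglyceride lipase, Hilpda and G0s2. They were taken by name as the genes of this family, and each has a row in every table, among 29929 genes in the sebaceous gland (SG) tables, 38605 in the skin tables, 35799 in the ileum table, 23818 in the liver table and 23845 in the embryo tables.

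A lipid droplet is a store of neutral lipid enclosed by a single layer of phospholipid, and perilipins coat that layer and set how far lipases reach the lipid inside. Cide proteins collect where droplets touch and pass lipid between them, so that droplets enlarge, and Hilpda and G0s2 bind and inhibit adipose triglyceride lipase, the product of Pnpla2. In the SG, sebocytes fill with droplets and then burst to release sebum, adipocytes of the skin hold large droplets, and enterocytes and hepatocytes pass droplet lipid on to lipoproteins.

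The series holds bulk RNA-seq of 208 samples in 21 groups of mice and single embryos, on a C57BL/6 background, and asks how a germ-free (GF) state of the parents is seen in the skin, gut, liver and early embryos of their offspring. Germ-free mice came from a gnotobiotic colony of the University of Pennsylvania, while conventionally raised (CR) mice descended from Charles River stock, so the GF state and the colony of origin cannot be told apart in any comparison. Crosses are written with the father first. Mice were 8 weeks old unless the methods said otherwise, and sex is not among the labels.

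The F0 SGs came from 3 GF and 3 CR mice, and the F1 SGs from 3 GF×GF and 2 CR×CR offspring. F1 offspring were born and colonised in a conventional facility. The F1 back skin came from 3 GF×GF, 3 GF×CR and 5 CR×CR mice. The F2 back skin came from 3 GF×GF, 6 GF×CR and 5 CR×CR mice, named by ancestry, and the methods describe more than 1 breeding scheme for F2 mice without saying which gave these skins. Ileum and liver were taken from 3 GF×CR and 4 CR×CR F1 mice each. Embryos were made by in vitro fertilization with eggs of females 4 to 6 weeks old. The 4-cell embryos numbered 15 GF×CR, 9 CR×GF, 21 RAG×WT (Rag2-/- sperm, wild-type eggs) and 25 CR×CR, and the morulae 17 GF×CR, 28 RAG×WT and 43 CR×CR. Rag2-/- mice were obtained from Jackson Laboratories and not from Charles River, so Rag2 genotype and stock of origin cannot be told apart in RAG×WT embryos. Nothing in the sources used here says which mice share a litter, so p-values measure the spread between these samples. The 4-cell embryos were collected over several rounds of in vitro fertilization, and no label ties an embryo to its round, so embryos were tested as separate samples and p-values over them may be too small.

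SGs were cut by laser capture microdissection from fixed, paraffin-embedded back skin, and their RNA and that of whole skin was sequenced after removal of ribosomal RNA, whereas ileum and liver libraries were made from polyadenylated RNA and embryos from single-embryo cDNA. Values of mouse tissues are CPM, read counts scaled to a common library total without regard to gene length, and those of embryos are TPM, scaled in the same way after division by transcript length. From the smallest step between values, libraries held about 3740000 to 18300000 reads in SGs, 11300000 to 24700000 in skin, 2590000 to 14200000 in ileum and 3410000 to 7260000 in liver, while embryos had 7585 to 13001 genes above 0. The labelled tissues matched their markers, with all 9 sebocyte markers at 1 CPM or more in each SG group, 8 of 8 enterocyte markers in ileum and 7 of 7 hepatocyte markers in liver. Differences were tested with limma on log2(value + 0.5) among genes at 1 or above in a number of samples no smaller than the size of the smaller group, and a gene is said to have changed at a Benjamini-Hochberg adjusted p under 0.05 over all tested genes. Log2 fold changes on this scale understate the change of low genes. In these bulk samples fewer cells of a type and less RNA per cell cannot be told apart.

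Each mouse tissue held a different set of coat genes. Plin2, the constitutive coat protein of most cells, ranged from 996 to 2013 CPM in the 11 SGs and 358 to 543 CPM in the 7 livers, against 58.7 to 153 CPM in the 25 skins and 22.04 to 47.9 CPM in the 7 ilea. Plin4, a coat protein of nascent droplets known from adipocytes and muscle, lay at 328 to 899 CPM in SGs and 150 to 340 CPM in skin, and Cidea, which enlarges droplets in brown adipocytes and sebocytes, at 229 to 430 CPM in SGs, 2.13 to 14.5 CPM in skin and 0 in every liver. Hilpda was at 31.8 to 192 CPM in SGs and no higher than 5.67 CPM in any other mouse tissue.

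The other members had their highest values elsewhere. Cideb, which in hepatocytes and enterocytes helps to load lipid onto lipoproteins, was at 296 to 416 CPM in liver and 176 to 302 CPM in ileum and did not exceed 0.596 CPM in SGs. Plin3, a cytosolic perilipin that moves onto young droplets, was highest in ileum at 229 to 582 CPM, and Plin5, which ties droplets to mitochondria in oxidative tissues, in liver at 31.03 to 88.8 CPM. G0s2 was also highest in liver, at 77.3 to 177 CPM, while Cidec, the Cide protein of white adipocytes, was highest in skin at 32.8 to 152 CPM. These tables were made by different library methods and quantified separately, so the order of tissues is a description with no test.

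Plin1, the perilipin of adipocytes, was listed at 0 in all 11 SGs and stayed at or under 0.959 CPM in all 25 skins, although the adipocyte hormone Adipoq reached 140.6 CPM in the same skins. In the ileum table, which was made from polyadenylated RNA, Plin1 reached 30.4 CPM. The part of library method and annotation in the low Plin1 values of skin was not tested.

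**Figure D1:**
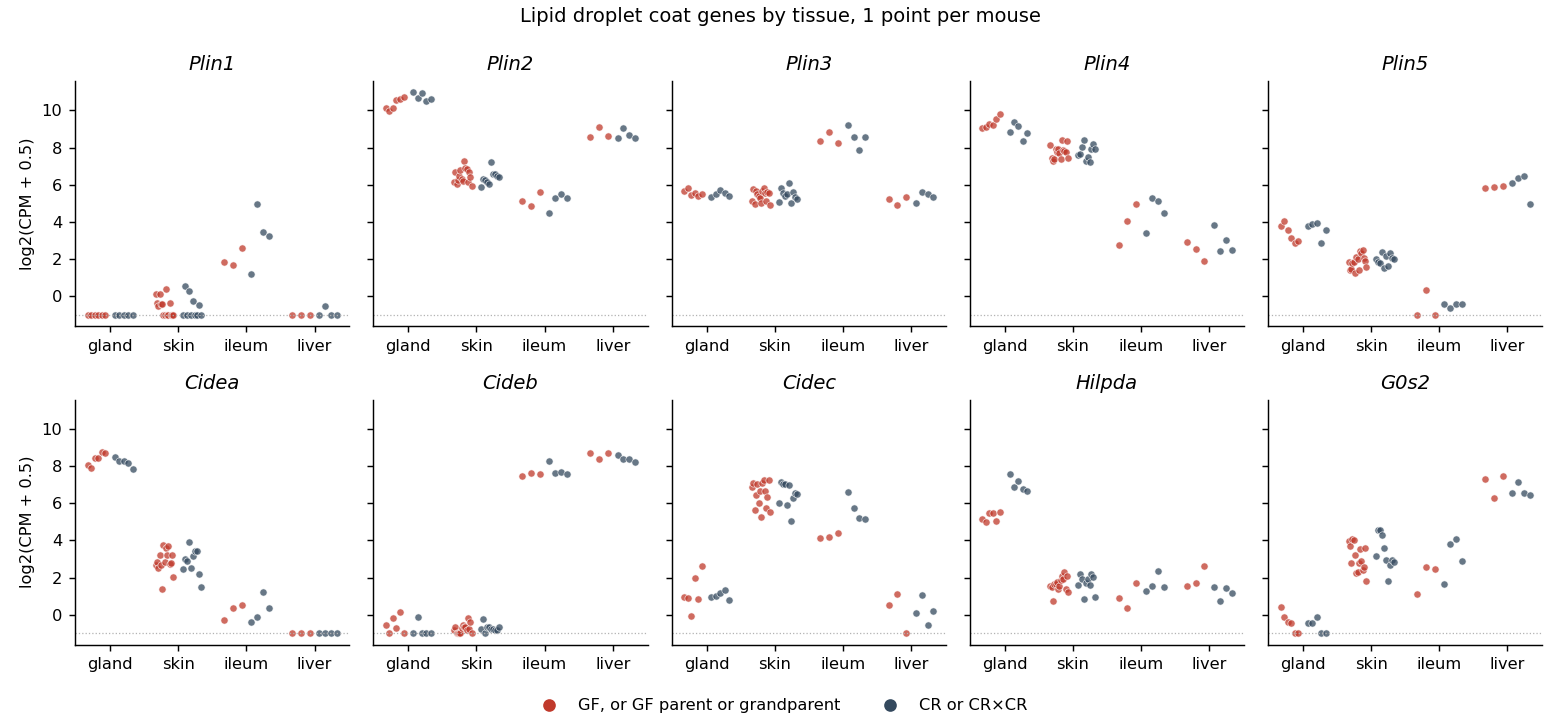
Levels of the 10 lipid droplet coat genes in each mouse of SGs, skin, ileum and liver, on a log2(CPM + 0.5) axis, with mice of germ-free descent or state in red at the left of each tissue, CR or CR×CR mice in dark at the right, and a dotted line at a value of 0. Hilpda stands high in SGs only, Cideb in ileum and liver, and Cidec in skin and ileum.

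In F0 SGs the coat genes did not move together, with Hilpda and Plin2 lower in GF than in CR glands and the other tested members not called. Hilpda fell to 36.9 ± 6.36 CPM in GF glands, against 152 ± 38.2 CPM in CR glands (SD, n = 3 each), which was 4.11-fold more in CR. Plin2 averaged 1075 ± 70.7 CPM in GF glands and 1857 ± 220 CPM in CR glands, 1.73-fold more in CR. Of the 10 members 7 passed the filter on low values, 2 were lower and 0 higher, while 2.2% of all 14889 genes tested were called in either direction and 1.34% were lower.

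By mouse, Hilpda, the hypoxia-induced droplet protein, had 34.99, 31.8 and 44.1 CPM in GF glands, against 192.2, 116.1 and 147.7 CPM in CR glands. Every GF gland lay below every CR gland, with a wide gap between them. The log2 fold change was -2.01 (SE 0.20, 95% confidence interval -2.46 to -1.56, limma, Benjamini-Hochberg adjusted p = 0.00605), which ranked 9 among the 14889 genes by p. The call was made in 13 of 14 alternative settings, and was not made with the level of Y-linked genes as a covariate (log2 fold change -1.51, adjusted p = 0.118).

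Plin2 had 1099.8, 995.6 and 1130.5 CPM in GF glands, against 2013.3, 1605.5 and 1952.6 CPM in CR glands. The groups did not overlap, and the 3 GF glands were closer to each other than the 3 CR glands were. The log2 fold change was -0.78 (SE 0.12, 95% confidence interval -1.05 to -0.52, limma, adjusted p = 0.0172, rank 87). It kept its sign in 14 of 14 alternative settings and its call in 8 of them, and was not called without CR replicate 1 (adjusted p = 0.0885), CR replicate 3 (0.0616), GF replicate 1 (0.0756) or GF replicate 2 (0.0753), without the filter (0.0722) or with the Y-linked covariate (-0.56, adjusted p = 0.247). Exact permutation tests of single genes cannot go below p = 0.1 with 3 against 3 glands, or with 3 against 2.

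Plin4 and Cidea showed no difference larger than the spread between glands. Plin4 had 523, 545 and 610 CPM in GF glands, against 457, 665 and 575 CPM in CR glands, with a 95% confidence interval of the log2 fold change of -0.33 to 0.32. Cidea had 267, 238 and 341 CPM in GF glands, against 361, 309 and 313 CPM in CR glands, for a log2 fold change of -0.23 (limma, adjusted p = 0.41). The values of the groups overlapped for both genes.

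Plin3 had 50.8, 56.3 and 43.1 CPM in GF glands, against 40.7, 44.8 and 53.0 CPM in CR glands (0.12, adjusted p = 0.731), and Plin5 ranged from 11.5 to 16.2 CPM in GF glands and 13.4 to 14.6 CPM in CR glands (-0.07, adjusted p = 0.888). Cidec was near the floor, at 1.42, 1.34 and 0.449 CPM in GF glands, against 1.44, 1.48 and 1.79 CPM in CR glands (-0.46, adjusted p = 0.608). Cidec was thus the only further member whose groups did not overlap, which made 3 of 7, where 24.9% of all tested genes did not overlap in either direction. Cideb and G0s2 stayed under 1 CPM and, with Plin1, were not tested. The median log2 fold change of the 7 tested members was -0.23, beside 0.14 over all genes. Scaling the libraries by median ratios shifted that all-gene median by -0.13 and gave -2.14 for Hilpda and -0.92 for Plin2.

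Markers of the cells in the captured tissue differed between the groups. The summed sebocyte markers ranged from 17403 to 22609 CPM in GF glands and 21676 to 23570 CPM in CR glands, with 3 of the 9 lower and 1 higher by limma. The summed fibroblast markers ranged from 6096 to 12172 CPM in GF glands and 4301 to 6839 CPM in CR glands, where 0 of 6 were called at the adjusted threshold, 6 of 6 had an unadjusted p under 0.05 by limma, and the median log2 fold change was 0.85. The medians of the sums were 10766 CPM in GF glands and 4901 CPM in CR glands. White adipocyte markers summed to 23.8 to 35.8 CPM in GF glands and 20.3 to 24.7 CPM in CR glands, 4 of the 9 markers in GF and 5 in CR glands reached 1 CPM, and Adipoq was at 0 in all 11 SGs. The Y-linked gene Ddx3y had 80.1, 94.0 and 81.7 CPM in GF glands, against 76.6, 58.5 and 63.9 CPM in CR glands, with no overlap. Of all tested genes 24.9% did not overlap in either direction. Every F0 gland of both groups lay above the F1 glands, which held 1.17 to 4.66 CPM of Ddx3y. Since Ddx3y separated the groups, the level of Y-linked transcripts and the GF state cannot be told apart in F0 glands. With the Y-linked covariate 0 of all genes were called, in place of 327. The part of fibroblast and Y-linked transcripts in the Hilpda and Plin2 differences was therefore not tested.

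**Figure D2:**
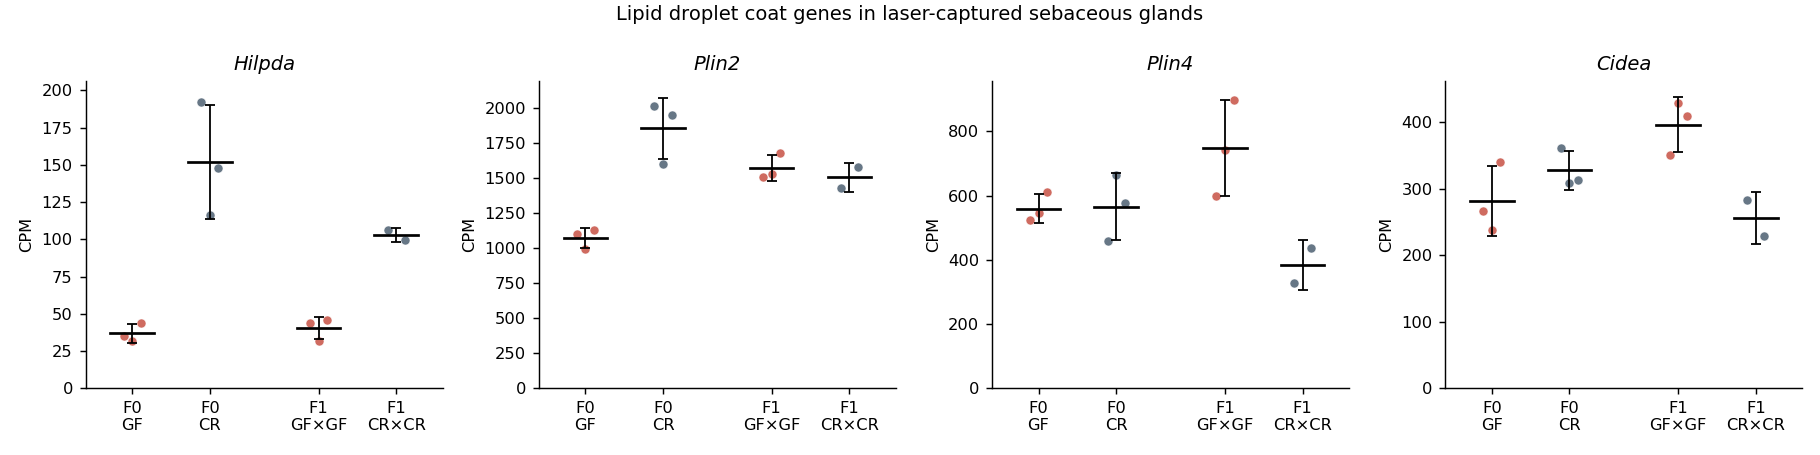
Hilpda, Plin2, Plin4 and Cidea in CPM in SGs, with F0 GF, F0 CR, F1 GF×GF and F1 CR×CR mice from left to right, where points are mice, lines are means and bars are SD. Hilpda of GF and GF×GF glands lies between 31.8 and 45.8 CPM, below every CR and CR×CR gland, whereas Plin2 separates the groups in F0 only.

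The promoters of the members called in SGs are shown to place Hilpda and Plin2 in the genome and to show what sequence their start sites hold. All are RefSeq windows of 300 bases around the start site, on GRCm38.p6, written 5′ to 3′ on the strand of the gene, in lower case, with capitals marking matches on either strand to ACGTG or GCGTG, the core of hypoxia response elements, or to the E-box CACGTG. The Hilpda gene lies at chr6:29272488-29275449 on the plus strand and has windows at 2 start sites that overlap, the upstream at chr6:29272238-29272537, around the start of the gene as annotated, and the downstream at chr6:29272376-29272675. The Plin2 gene lies at chr4:86626910-86670217 on the minus strand, with its window at chr4:86670010-86670309.
Hilpda, upstream: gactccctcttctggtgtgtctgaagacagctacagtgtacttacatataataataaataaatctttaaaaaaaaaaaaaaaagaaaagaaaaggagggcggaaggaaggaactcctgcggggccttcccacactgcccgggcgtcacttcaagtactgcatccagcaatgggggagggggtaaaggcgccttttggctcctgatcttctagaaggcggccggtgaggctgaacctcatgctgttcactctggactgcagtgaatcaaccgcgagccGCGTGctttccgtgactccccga
Hilpda, downstream: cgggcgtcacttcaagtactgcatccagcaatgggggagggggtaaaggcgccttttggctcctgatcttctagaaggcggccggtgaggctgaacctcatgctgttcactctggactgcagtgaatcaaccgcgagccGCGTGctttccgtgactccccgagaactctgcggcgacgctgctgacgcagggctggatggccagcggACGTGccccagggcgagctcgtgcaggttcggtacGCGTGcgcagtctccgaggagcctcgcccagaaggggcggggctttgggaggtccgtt
Plin2: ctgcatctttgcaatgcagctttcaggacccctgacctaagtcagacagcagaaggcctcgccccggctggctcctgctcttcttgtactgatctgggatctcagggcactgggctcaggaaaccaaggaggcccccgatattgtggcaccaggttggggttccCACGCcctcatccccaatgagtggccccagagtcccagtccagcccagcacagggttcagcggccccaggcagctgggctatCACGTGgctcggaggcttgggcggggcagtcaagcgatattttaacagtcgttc

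The upstream Hilpda window held GCGTG at position 27 from its start site and no ACGTG, and 50.7% of its bases were G or C. The downstream window held ACGTG at -43 and GCGTG at -111 and -8 from its own start site, with 64.3% G or C. The data do not tell which start site SGs use. The Plin2 window held the E-box CACGTG at -4, which contains ACGTG on both strands, and GCGTG on the opposite strand at -86, with 60.7% G or C. Among all 32851 RefSeq promoter windows of the same length, 19.6% held ACGTG, 32.4% GCGTG and 7.15% CACGTG, so that each match is common. Of 12 windows of 9 members, with Cidea not shown, 2 held ACGTG, 9 held GCGTG and 1 held CACGTG. The Hilpda windows overlap and share a GCGTG match, and so do those of Plin5, so some matches are counted in more than 1 window. By gene, 6 of the 9 members held GCGTG. On both strands, the direct repeat bound by PPAR and RXR was found in 0 of the 12 windows and in 0.0396% of all windows, its looser form with free bases in each repeat in 0 of 12 and 0.381%, and the palindrome bound by the glucocorticoid receptor in 0 of 12 and 0.00913%. Such matches are descriptions of the letters in these windows.

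In F1 SGs of colonised GF×GF offspring, Hilpda was again lower and was the 1 member called, while Plin2 was not called. Hilpda fell to 40.5 ± 7.51 CPM in GF×GF glands (n = 3), against 103 ± 4.64 CPM in CR×CR glands (n = 2), 2.55-fold more in CR×CR. Among all 15058 genes tested 0.717% were called and 0.153% were lower.

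Hilpda had 43.7, 31.9 and 45.8 CPM in GF×GF glands, against 106.4 and 99.8 CPM in CR×CR glands. All GF×GF glands lay below both CR×CR glands. The log2 fold change was -1.35 (SE 0.19, 95% confidence interval -1.80 to -0.91, limma, adjusted p = 0.0274, rank 53). The Hilpda call was made in 6 of 13 alternatives, and leaving out any of the 5 mice ended the call, GF×GF replicates 1, 2 and 3 and CR×CR replicates 1 and 2 alike, with adjusted p between 0.0665 and 0.202 and log2 fold changes between -1.45 and -1.19. The call was also lost without the filter (adjusted p = 0.145) and with the Y-linked covariate (-0.68, adjusted p = 0.795).

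Plin2 had 1508.6, 1533.9 and 1679.4 CPM in GF×GF glands, against 1433.8 and 1581.5 CPM in CR×CR glands. These values overlapped, and the log2 fold change was 0.06 with a 95% confidence interval of -0.22 to 0.35 (limma, adjusted p = 0.879).

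Plin4 and Cidea were higher in every GF×GF gland than in either CR×CR gland without passing the adjusted threshold. Plin4 had 599, 743 and 899 CPM in GF×GF glands, against 328 and 438 CPM in CR×CR glands, a ratio of 1.95 (log2 fold change 0.96, 95% confidence interval 0.51 to 1.41, limma, adjusted p = 0.092). Cidea had 350, 430 and 409 CPM in GF×GF glands, against 283 and 229 CPM in CR×CR glands, a ratio of 1.55 (0.63, 95% confidence interval 0.29 to 0.98, adjusted p = 0.139). With Hilpda, 3 of the 7 tested members did not overlap between groups, and of all tested genes 30.2% did not.

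Plin3 lay between 41.8 and 46.7 CPM in GF×GF glands and at 47.0 and 41.9 CPM in CR×CR glands, and Plin5 between 6.91 and 8.41 CPM in GF×GF glands and at 6.87 and 11.5 CPM in CR×CR glands. Cidec had 3.38, 1.33 and 5.57 CPM in GF×GF glands, against 2.05 and 1.20 CPM in CR×CR glands (0.75, adjusted p = 0.636). The members had a median log2 fold change of 0.06, beside -0.03 over all genes. Sebocyte markers summed to 21132 to 25571 CPM in GF×GF glands and 18245 to 19642 CPM in CR×CR glands, and fibroblast markers to 800 to 1622 CPM in GF×GF glands and 1870 to 2260 CPM in CR×CR glands, so the groups did not overlap in either sum. The part of these sums in the member values was not tested.

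The F1 and F0 effects were set against each other in a single model of the SG libraries, each effect taken within its own table, a comparison added after the data had been seen. Plin2 differed, with an F1 effect 0.85 higher on the log2 scale than the F0 effect (SE 0.17, 95% confidence interval 0.48 to 1.21, limma, adjusted p = 0.0449), where 0.746% of 16088 genes were called. That call was made in 6 of 17 alternatives, with adjusted p from 0.032 to 0.137. The difference for Hilpda was 0.65 (95% confidence interval 0.01 to 1.30, adjusted p = 0.303), for Cidea 0.86 (0.39 to 1.33, adjusted p = 0.101) and for Plin4 0.96 (0.40 to 1.52, adjusted p = 0.111), and none of these passed. Glands of the 2 generations also differed in Ddx3y, at 58.5 to 94.0 CPM in F0 and 1.17 to 4.66 CPM in F1, so the level of Y-linked transcripts and the generation cannot be told apart in this contrast.

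Genes that work with the droplet coat were called in single cases in F0 SGs, to be read beside 2.2% of all genes called and 1.34% lower. Of 8 tested lipases and cofactors 1 was lower and 0 higher, namely Mgll, which splits monoacylglycerol, with 3339 ± 678 CPM in GF glands and 5949 ± 216 CPM in CR glands (-0.85, limma, adjusted p = 0.0312). Pnpla2, the target of Hilpda and G0s2, was among those not called. Of 8 tested genes of fatty acid uptake and handling 2 were lower and 1 higher. The fatty acid receptor Cd36 averaged 398 ± 39.4 CPM in GF glands and 735 ± 95.1 CPM in CR glands (-0.88, adjusted p = 0.0142), lipoprotein lipase Lpl 112 ± 3.75 CPM in GF glands and 176 ± 20.97 CPM in CR glands (-0.64, adjusted p = 0.0336), and its inhibitor Angptl4 71.7 ± 9.90 CPM in GF glands and 25.1 ± 12.4 CPM in CR glands (1.59, adjusted p = 0.0341). The uptake list had a median log2 fold change of -0.23, against 0.14 over all genes.

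Of 12 tested genes of neutral lipid synthesis and droplet formation 1 was lower, Dgat2l6, whose name marks it as a relative of Dgat2 and which served here as a sebocyte marker. Of 10 tested genes of the Ppara and fasting response Pdk4, a kinase that holds back pyruvate oxidation, was lower at 39.96 ± 2.01 CPM in GF glands and 66.4 ± 6.68 CPM in CR glands (-0.72, adjusted p = 0.0342), and Angptl4 was higher. By limma 0 of 14 other droplet-bound proteins and 0 of 10 transcriptional regulators were called, and 3 of the 14 and 2 of the 10 had an unadjusted p under 0.05. In F1 SGs, where 0.717% of all genes were called, the same lists gave 1 call, Agpat2, an acyltransferase of triacylglycerol synthesis, with 161 ± 38.1 CPM in GF×GF glands and 58.2 ± 5.04 CPM in CR×CR glands (1.43).

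In back skin no member was called in any of the 4 comparisons, and all values overlapped between groups. By limma 0 of 8 tested members passed in F1 GF×GF, F1 GF×CR, F2 GF×GF and F2 GF×CR skin, each against CR×CR skin of its generation, where 0.09%, 0.0537%, 0.0418% and 0% of all genes were called, 6.5%, 4.5%, 1.4% and 0.237% did not overlap, and 1488, 1186, 293 and 365 genes had an unadjusted p under 0.05. The members' median log2 fold changes were -0.23, -0.12, -0.11 and 0.12 in this order, beside -0.20, -0.08, 0.00 and 0.02 over all genes. Median ratio scaling moved the all-gene median of F1 GF×GF skin by 0.20. Comparisons within a generation share their CR×CR mice, whose member values differed by ratios of 0.979 to 1.02 between the tables that list them.

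Plin2 was the member with the smallest p in F1 GF×CR skin, from a GF father and a CR mother, at 75.1, 87.6 and 109.4 CPM in GF×CR skin and 58.9 to 79.7 CPM in CR×CR skin. By limma the log2 fold change was 0.37 (95% confidence interval 0.01 to 0.72, limma, adjusted p = 0.698, exact permutation p = 0.0536, two-sided). In F1 GF×GF skin Plin2 was at 69.8, 101.3 and 64.2 CPM, against 58.7 to 79.5 CPM in CR×CR skin. Only the second GF×GF mouse lay above all CR×CR mice.

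Cidec spread widely within every group of skin. In F1 skin it had 118.1, 133.0 and 49.7 CPM in GF×GF mice and 87.8, 130.3 and 65.2 CPM in GF×CR mice, against 64.0, 141.1, 129.0, 132.5 and 59.7 CPM in CR×CR mice. In F2 skin it had 98.9, 37.95 and 134.4 CPM in GF×GF mice, 45.3 to 152.0 CPM in the 6 GF×CR mice, and 123.9, 32.8, 78.1, 93.2 and 90.8 CPM in CR×CR mice. Each group held both low and high mice.

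The skins low in Cidec were also low in Adipoq, which adipocytes secrete. In F2 GF×GF skin Adipoq was at 46.7, 9.69 and 122.8 CPM, the same order as Cidec, and in F2 CR×CR skin at 83.1, 17.5, 39.1, 44.6 and 46.5 CPM. G0s2 had 4.24, 4.5 and 6.35 CPM in F2 GF×GF skin, against 7.26, 3.01, 6.0, 7.19 and 6.78 CPM in F2 CR×CR skin, and 15.02, 12.3 and 6.29 CPM in F1 GF×GF skin, against 8.47, 22.7, 22.7, 18.8 and 11.5 CPM in F1 CR×CR skin (-0.55, limma, adjusted p = 0.584). All 9 white adipocyte markers were at 1 CPM or more in every skin group, and their sum ranged from 1095 to 3912 CPM in GF×GF skin, 1230 to 3584 CPM in GF×CR skin and 1648 to 4118 CPM in CR×CR skin.

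**Figure D3:**
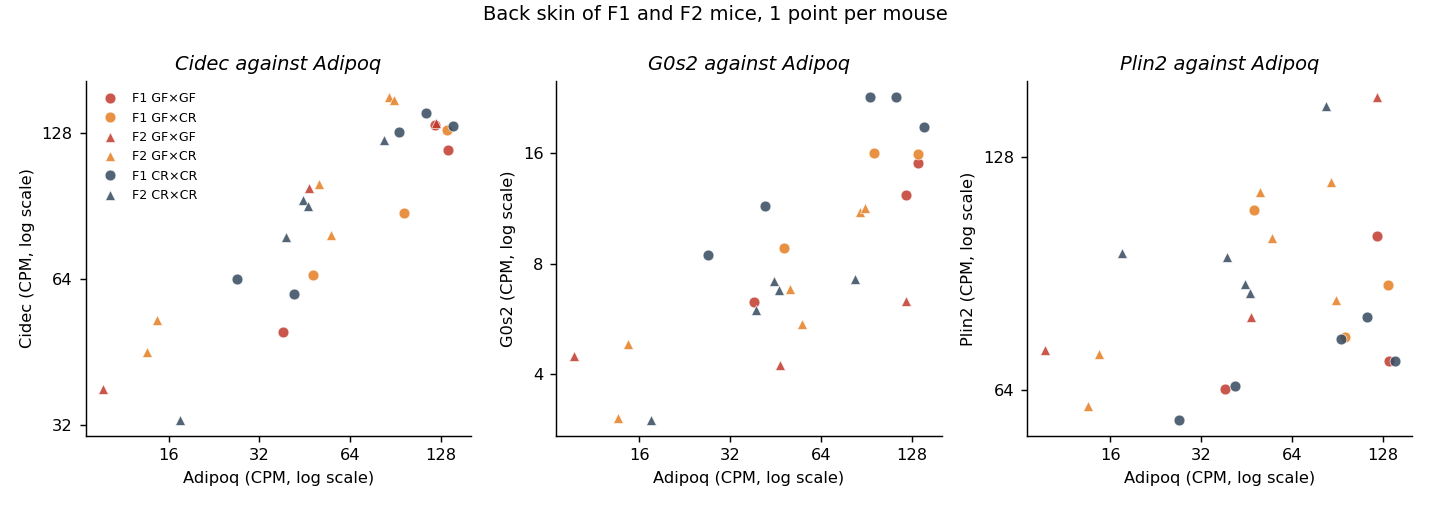
Cidec, G0s2 and Plin2 against Adipoq in back skin, in CPM on log axes, with each of the 25 mice as a point, circles for F1, triangles for F2 and colours for GF×GF, GF×CR and CR×CR. Cidec lies along Adipoq in all groups, with a Pearson correlation of 0.90, and Plin2 does so less, with 0.34.

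Over the 25 skins the Pearson correlation of log2 values with Adipoq was 0.90 for Cidec, 0.78 for G0s2 and 0.67 for Plin3, and 0.34 for Plin2, 0.28 for Cidea, 0.04 for Hilpda and -0.06 for Plin5. Among members Cidec followed Plin3 (0.72) and G0s2 (0.69), Plin2 followed Plin3 (0.67) and Plin4 followed Plin5 (0.60). These points share tissue pieces, generation and library depth, and the coefficients are descriptions. Of 16112 skin genes those closest to Cidec were Car5b (0.945), Pnpla2 (0.931), the lipase that droplets of fat cells yield to, and Cd36 (0.928). Those closest to Cidea were Krt79 (0.879), Hsd3b6 (0.877) and Paqr7 (0.873), where Krt79 served as a sebocyte marker. Closest to Plin2 were Cpt1a (0.893), which brings fatty acids into mitochondria, Arhgdib (0.85) and Akr1c13 (0.827), and closest to G0s2 were Dmrt2 (0.913), Ptger3 (0.905) and Scd2 (0.904).

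The other members had closest genes of their own in skin. Plin3 was followed by Laptm4a (0.955), Uhmk1 (0.954) and Slc16a10 (0.954), Plin4 by Apol6 (0.84), Kit (0.742) and Pkp2 (0.732), Plin5 by Tada2a (0.862), Tom1l1 (0.862) and Mlip (0.86), and Hilpda by Ptcra (0.856), Pnpla1os (0.822) and Hdac3 (0.817).

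In the ileum, Cidec was lower in every GF×CR mouse than in every CR×CR mouse, but no member passed the adjusted threshold. Cidec averaged 18.4 ± 2.10 CPM in GF×CR ileum (n = 3) and 54.7 ± 27.9 CPM in CR×CR ileum (n = 4), 2.97-fold more in CR×CR. By limma 0 of 8 tested members and 0% of 14802 genes were called, with 666 genes at an unadjusted p under 0.05.

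Cidec had 17.1, 17.4 and 20.9 CPM in GF×CR ileum, against 94.9, 52.2, 36.7 and 35.1 CPM in CR×CR ileum. The GF×CR mice lay within a narrow range, and the CR×CR mice were spread by their first mouse. The log2 fold change was -1.43 (SE 0.34, 95% confidence interval -2.19 to -0.66, limma, adjusted p = 0.943, exact permutation p = 0.0286, two-sided), which ranked 17 among all genes by p, and 0.0286 is the smallest p that 3 against 4 mice allow. It was the 1 of 8 members with no overlap, where 5.6% of all genes did not overlap. Without CR×CR replicate 1 the log2 fold change was -1.13.

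Other adipocyte-associated members were low in some GF×CR ilea too. Plin1 had 3.03, 2.70 and 5.64 CPM in GF×CR ileum, against 1.77, 30.4, 10.7 and 9.03 CPM in CR×CR ileum, and G0s2 had 1.67, 5.40 and 4.91 CPM in GF×CR ileum, against 2.64, 13.7, 16.7 and 6.96 CPM in CR×CR ileum. Their log2 fold changes were -1.18 for Plin1 and -1.08 for G0s2, and the groups overlapped through the first CR×CR mouse, which had the lowest CR×CR value of both. Plin4 had 6.36, 15.8 and 31.04 CPM in GF×CR ileum, against 10.0, 38.4, 34.3 and 21.9 CPM in CR×CR ileum (-0.64).

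Adipoq followed Plin1 and not Cidec in that mouse. It had 6.36, 10.0 and 14.7 CPM in GF×CR ileum, against 3.27, 56.9, 39.8 and 26.1 CPM in CR×CR ileum, so the CR×CR mouse with the most Cidec had the least Adipoq. White adipocyte markers, 8 of 9 at 1 CPM or more, summed to 158 to 273 CPM in GF×CR ileum and 122 to 982 CPM in CR×CR ileum, with a median log2 fold change of -1.11 and 0 of 8 called. Enterocyte markers summed to 22825 to 27897 CPM in GF×CR ileum and 19603 to 53713 CPM in CR×CR ileum. The part of attached fat and of enterocyte content in the Cidec values was not tested.

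**Figure D4:**
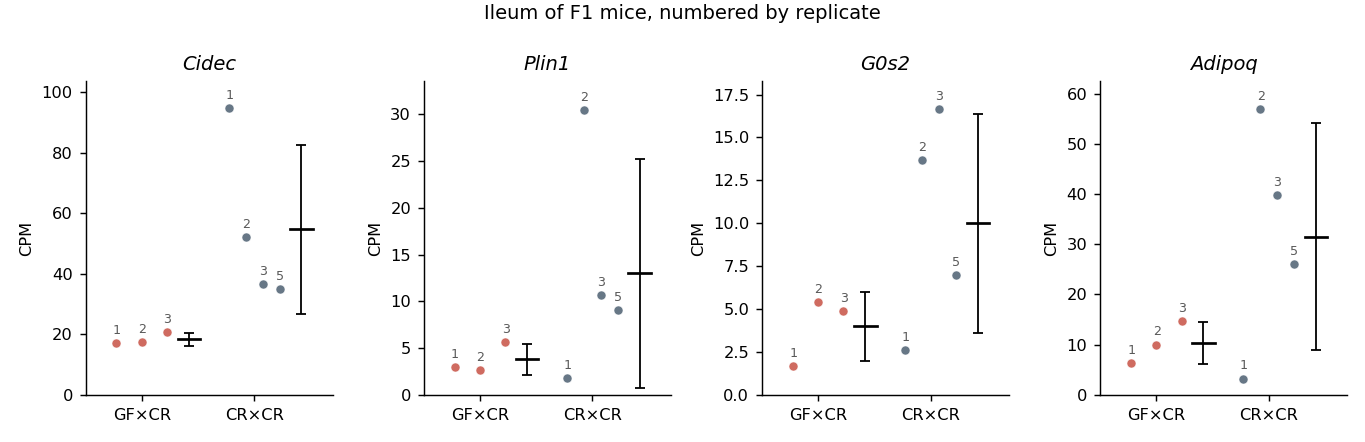
Cidec, Plin1, G0s2 and Adipoq in CPM in the ileum of 3 GF×CR mice at the left and 4 CR×CR mice at the right, each point numbered by its replicate, with mean ± SD beside the points. CR×CR replicate 1 is the highest for Cidec, at 94.9 CPM, and the lowest CR×CR mouse for the other genes.

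Cideb, which serves lipoprotein assembly, and Plin3 did not separate the groups. Cideb had 175.8, 198.6 and 190.0 CPM in GF×CR ileum, against 302.5, 194.0, 201.4 and 190.3 CPM in CR×CR ileum (-0.21), and Plin3 had 320.9, 447.5 and 302.6 CPM in GF×CR ileum, against 581.6, 374.3, 228.6 and 383.9 CPM in CR×CR ileum (-0.08). Plin2 ranged from 28.2 to 47.9 CPM in GF×CR ileum and 22.04 to 44.3 CPM in CR×CR ileum, and Hilpda from 0.772 to 2.76 CPM in GF×CR ileum and 1.89 to 4.69 CPM in CR×CR ileum. Plin5 and Cidea did not pass the filter. The median log2 fold change of the tested members was -0.66, beside -0.08 over all genes.

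In the liver 0 of 7 tested members were called by limma, where 0.0343% of 11663 genes were called and 1846 genes had an unadjusted p under 0.05. Hilpda had 2.48, 2.80 and 5.67 CPM in GF×CR liver, against 2.35, 1.17, 2.22 and 1.71 CPM in CR×CR liver. All GF×CR livers lay above all CR×CR livers, which held for 1 of 7 members and 15.8% of all genes in either direction. On the log2 scale the change was 0.76 (SE 0.41, 95% confidence interval -0.11 to 1.64, limma, adjusted p = 0.376, exact permutation p = 0.0286, two-sided), and 0.44 without GF×CR replicate 3.

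Plin2, Cideb and G0s2 overlapped between the groups of livers. Plin2 had 371.6, 542.8 and 390.5 CPM in GF×CR liver, against 357.7, 524.0, 410.9 and 365.5 CPM in CR×CR liver (0.07), and Cideb 414.4, 334.4 and 415.8 CPM in GF×CR liver, against 383.3, 327.0, 334.7 and 296.0 CPM in CR×CR liver (0.21, adjusted p = 0.598). G0s2 had 157.5, 77.3 and 176.7 CPM in GF×CR liver, against 94.1, 138.2, 91.7 and 86.9 CPM in CR×CR liver (0.35, adjusted p = 0.544). GF×CR livers held both the lowest and the highest G0s2 value.

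Plin5 had 55.3, 58.6 and 60.1 CPM in GF×CR liver, against 68.3, 81.3, 88.8 and 31.03 CPM in CR×CR liver (-0.11). Plin3 ranged from 29.5 to 40.5 CPM in GF×CR liver and 31.95 to 47.7 CPM in CR×CR liver, and Plin4 from 3.27 to 7.02 CPM in GF×CR liver and 4.87 to 13.8 CPM in CR×CR liver. Cidea was at 0 in all 7 livers, Plin1 at 0 in 6 of 7, and Cidec, at 1.65 CPM or less, did not pass the filter. Genes of the Ppara and fasting response, which fatty acids and food withdrawal raise in liver, had a median log2 fold change of 0.74 over 12 tested genes, beside -0.02 over all genes, and 0 of 12 were called. An unadjusted p under 0.05 by limma was held by 7 of the 12, beside 15.8% of all genes. Hepatocyte markers summed to 102816 to 113069 CPM in GF×CR liver and 64501 to 88460 CPM in CR×CR liver, with no overlap. The part of this sum in the member values of liver was not tested.

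In single embryos, where TPM allow levels to be compared between genes, Plin3 was the most abundant member at both stages, and no member was called between crosses. Over all 70 embryos of the 4-cell stage the median was 102 TPM for Plin3, 56.8 TPM for Hilpda, 12.3 TPM for Cidea, 7.93 TPM for Plin2 and 1.3 TPM for Plin1. Plin4, Plin5, Cideb and Cidec had medians of 0, and G0s2 was listed at 0 in all 70. Plin3 and Hilpda overlapped in range, at 2.14 to 319 TPM for Plin3 and 0 to 228 TPM for Hilpda, and the order of Cidea and Plin2 was within their spread. Over the 88 morulae the medians were 161 TPM for Plin3, 119 TPM for Plin2, 78.2 TPM for Hilpda and 24.9 TPM for Cidea.

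Plin3 was the member with the smallest p at the 4-cell stage. In CR×GF embryos, with a GF mother, it ran from 29.4 over a median of 68.2 to 118 TPM, against 54.9, 106 and 252 TPM in CR×CR embryos. On the log2 scale the change was -0.65 (SE 0.23, unadjusted limma p = 0.00693, adjusted p = 0.247, permutation p = 0.00679), where 0.337% of 10670 genes were called. In GF×CR embryos, with a GF father, it ran from 16.9 over 94.9 to 226 TPM (-0.51, adjusted p = 0.954), where 0.0102% of 9780 genes were called.

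The fathers' and mothers' comparisons share their CR×CR embryos. Set directly against each other, GF×CR and CR×GF embryos differed in Plin3 by 0.14 on the log2 scale (95% confidence interval -0.56 to 0.85, limma, adjusted p = 0.928). In RAG×WT embryos, whose fathers lack T and B cells, Plin3 ran from 2.14 over 108 to 319 TPM, against 54.9, 106 and 252 TPM in CR×CR embryos (-0.61, adjusted p = 0.336), where 5.53% of 9313 genes were called over all embryos. The median was slightly higher in RAG×WT embryos while the log2 fold change was negative, and the range of Plin3 was widest in RAG×WT embryos. Of the lists of genes that work with the coat, the call in RAG×WT embryos was Pcyt1a. It averaged 61.9 TPM in RAG×WT and 39.8 TPM in CR×CR embryos (0.66, limma, adjusted p = 0.0306).

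Hilpda had medians of 43.6 TPM in GF×CR, 51.7 TPM in CR×GF and 52.6 TPM in RAG×WT embryos, against 63.1 TPM in CR×CR embryos, and 1 GF×CR embryo was listed at 0. Plin2 averaged 13.5 ± 13.6 TPM in GF×CR, 13.8 ± 9.97 TPM in CR×GF and 9.63 ± 10.1 TPM in RAG×WT embryos, against 10.3 ± 10.0 TPM in CR×CR embryos, and was at 0 in some embryos of all crosses but CR×GF. Cidea averaged 12.1 TPM in GF×CR, 10.99 TPM in CR×GF and 17.7 TPM in RAG×WT embryos, against 13.6 TPM in CR×CR embryos. None of these differed from CR×CR by an adjusted p under 0.05, and by limma the calls were 0 of the tested members in each of the 3 comparisons, where 508, 1214 and 2032 genes had an unadjusted p under 0.05 for GF×CR, CR×GF and RAG×WT.

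The embryo libraries fell into 2 sets, told apart by whether Marchf2 or Mtarc2 had the higher value, a split seen in the values and not in the labels. GF-derived embryos are all of set A and RAG×WT embryos all of set B. CR×CR embryos are of both, 19 of set A and 6 of set B at the 4-cell stage, 21 and 22 as morulae. Within set A the Plin3 log2 fold change of CR×GF 4-cell embryos was -0.61 (adjusted p = 0.32).

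In morulae of GF fathers no coat gene was called, in a comparison that called many other genes. Plin2 averaged 123 ± 62.1 TPM in GF×CR morulae (n = 17) and 126 ± 61.0 TPM in CR×CR morulae (n = 43), with a log2 fold change of -0.07 (limma, adjusted p = 0.856). Plin3 averaged 149 ± 56.2 TPM in GF×CR and 176 ± 49.2 TPM in CR×CR morulae (-0.28, adjusted p = 0.164), and Hilpda 70.0 ± 19.9 TPM in GF×CR and 79.7 ± 23.1 TPM in CR×CR morulae (-0.19, adjusted p = 0.24). Cidea averaged 36.6 ± 15.1 TPM in GF×CR and 28.7 ± 17.6 TPM in CR×CR morulae (0.70, adjusted p = 0.171). All GF×CR morulae are of set A, and the CR×CR morulae of set A averaged 124 TPM of Plin2, 163 TPM of Plin3, 72.2 TPM of Hilpda and 32.1 TPM of Cidea. By limma 0 members were called, where 30.2% of 10893 genes were called, 27.3% lower, and 4522 genes had an unadjusted p under 0.05.

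The all-gene median of that comparison was -0.32, so Plin3 and Hilpda lay near it and Plin2 and Cidea above it. Median ratio scaling moved that median by 0.15 and the Plin3 value to -0.09, and the Y-linked covariate gave -0.40 for Plin3 with an adjusted p of 0.0498. With the number of genes detected per embryo as a covariate the Plin3 value was 0.04, so its sign rested on that choice. Of the other lists, to be read beside 27.3% of all genes lower, 8 of 12 tested genes of lipid synthesis and droplet formation were lower and 0 higher (median -0.74), among them Agpat2 with 234 TPM in GF×CR and 316 TPM in CR×CR morulae. Of 5 tested uptake genes 3 were lower, among them the fatty acid carrier Fabp5 with 343 TPM in GF×CR and 535 TPM in CR×CR morulae (-0.71). The regulators Srebf1 (-1.17, limma, adjusted p = 0.000983) and Hif1a (-1.50, adjusted p = 0.00172) were lower too, as were Cpt1a (-0.98) and Pcyt1a (-0.70). GF×CR morulae had 8591 to 12640 genes above 0, and CR×CR morulae 9922 to 13001. The part of detected genes and of the embryo sets in these list counts was not tested.

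RAG×WT morulae (n = 28) gave 0 called members by limma, where 2.68% of 10477 genes were called and 2026 had an unadjusted p under 0.05. Plin2 averaged 103 ± 47.9 TPM in RAG×WT and 126 ± 61.0 TPM in CR×CR morulae (-0.29, adjusted p = 0.481), Plin3 161 ± 47.5 TPM in RAG×WT and 176 ± 49.2 TPM in CR×CR morulae (-0.13) and Hilpda 85.8 ± 32.1 TPM in RAG×WT and 79.7 ± 23.1 TPM in CR×CR morulae (0.05). Cidea averaged 17.4 ± 10.8 TPM in RAG×WT and 28.7 ± 17.6 TPM in CR×CR morulae (-0.61, adjusted p = 0.343), and its log2 fold change within set B was -0.31. Of the lists of genes that work with the coat, Fabp5 was lower, with 310 TPM in RAG×WT and 535 TPM in CR×CR morulae (-0.92, limma, adjusted p = 0.0122). Osbpl2 (0.55, adjusted p = 0.0231) and Rxra (0.56, adjusted p = 0.0402) were higher. Only within set B are these crosses free of the difference in sets, and there 3 of all genes were called.

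**Figure D5:**
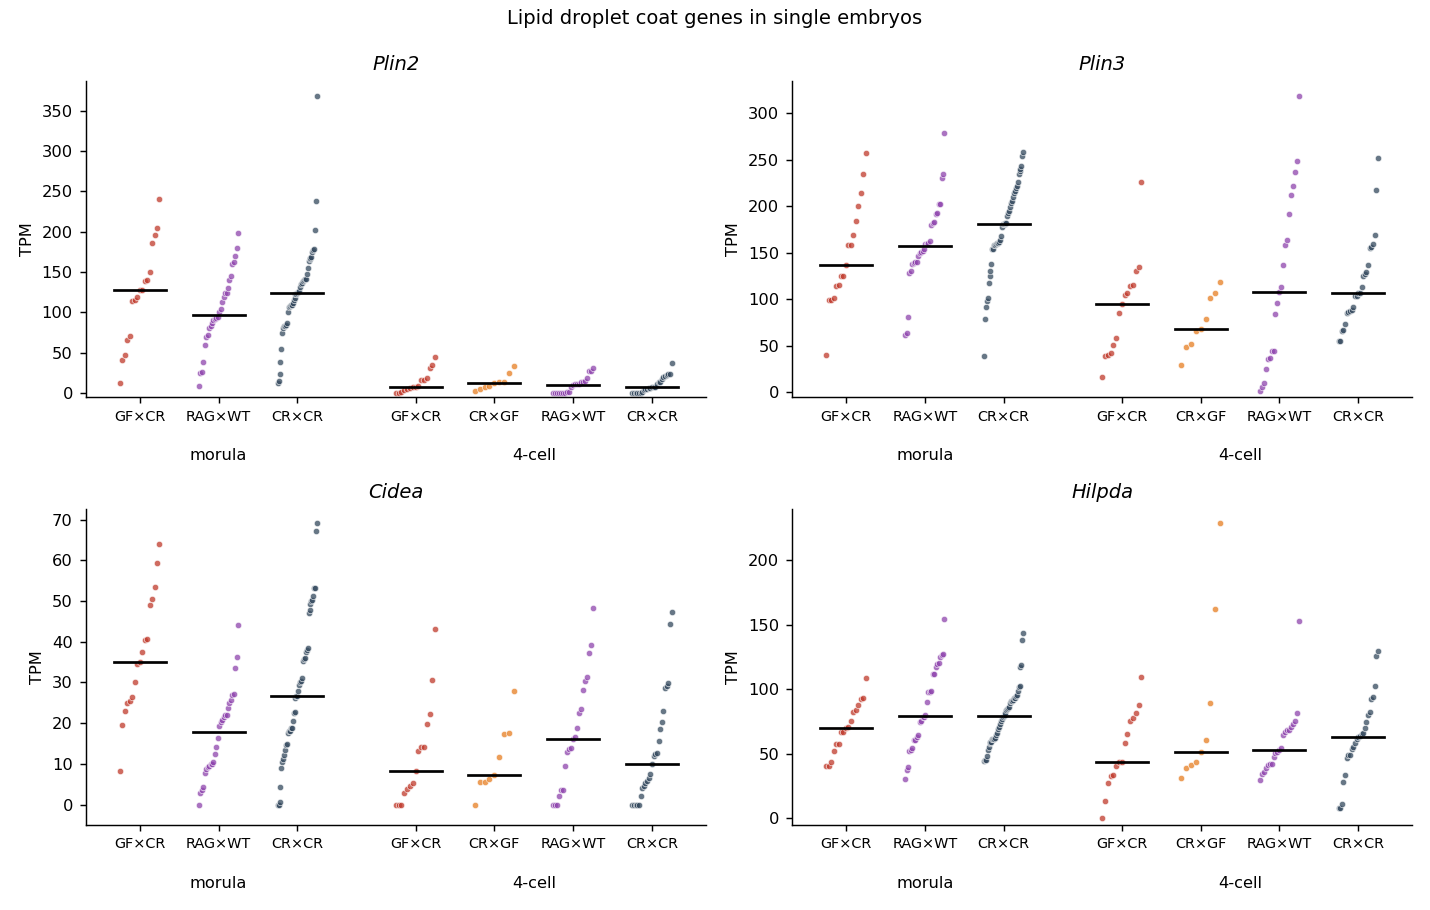
Plin2, Plin3, Cidea and Hilpda in TPM in single embryos, with morulae of GF×CR, RAG×WT and CR×CR and then 4-cell embryos of GF×CR, CR×GF, RAG×WT and CR×CR from left to right, points for embryos and a line for the median. Plin2 has medians of 97.1 to 127 TPM in the morula groups and 7.65 to 12.6 TPM in the 4-cell groups, while crosses of a stage overlap.

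Between stages Plin2 had the largest fold change of the members. Morulae of CR×CR parents had 126 ± 61.0 TPM of Plin2 and 4-cell embryos 10.3 ± 10.0 TPM, a ratio of 12.2, and 4 of the 5 members that passed the filter were higher and 0 lower in morulae. Of all 10485 genes tested 69.1% were called and 41.6% were higher, so 4 of 5 is to be read against that background. The members' median log2 fold change was 0.62, beside 0.23 over all genes, and median ratio scaling moved the all-gene median by 0.12.

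Plin2 ran from 12.2 over a median of 124 to 368 TPM in morulae, against 0, 7.65 and 37.7 TPM in 4-cell embryos. Some morulae lay within the range of 4-cell embryos, so the groups overlapped, as they did for all but 0.773% of the genes tested. By limma the log2 fold change was 4.29 (SE 0.35, 95% confidence interval 3.6 to 4.98, limma, adjusted p = 3.36e-18), and it was called in all 11 alternatives, with values from 3.22 to 4.77.

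Plin3, Cidea and Hilpda were higher by less. Plin3 ran from 39.5 over 181 to 258 TPM in morulae, against 54.9, 106 and 252 TPM in 4-cell embryos (0.62, SE 0.13, limma, adjusted p = 3.13e-05), Cidea from 0 over 26.8 to 69.2 TPM in morulae, against 0, 9.88 and 47.3 TPM (1.6, SE 0.45, adjusted p = 0.00116), and Hilpda from 44.4 over 79.5 to 143 TPM in morulae, against 8.04, 63.1 and 130 TPM (0.55, SE 0.18, adjusted p = 0.0045). Values overlapped for each. With the genes detected in each embryo as a covariate, Plin3 was at 0.17 (adjusted p = 0.354) and Cidea at 0.41 (adjusted p = 0.541), within set B Cidea was at 0.85 (adjusted p = 0.43), and within set A Hilpda was at 0.39 (adjusted p = 0.125). Plin5 averaged 2.95 TPM in morulae and 3.61 TPM in 4-cell embryos and was not called (0.56, adjusted p = 0.235). The fold change on the log scale and the difference of the means had opposite signs, and 4-cell CR×CR embryos of set A ran from 0 over a median of 0.4 to 19.57 TPM.

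Stage markers bore out the labels, with 6 of 7 morula markers higher and 5 of 5 oocyte and early embryo markers lower in morulae. The lists of genes that work with the coat stand beside 41.6% of all genes higher and 27.5% lower. Of these genes, 3 of 6 tested lipases and cofactors were higher and 1 lower, among them Pnpla2 with 20.4 TPM in morulae and 7.73 TPM in 4-cell embryos (1.74), its activator Abhd5 with 22.02 TPM in morulae and 4.35 TPM in 4-cell embryos (2.52) and the phospholipase Ddhd2 with 23.5 TPM in morulae and 51.8 TPM in 4-cell embryos (-1.21). Of 12 tested genes of lipid synthesis 6 were higher and 4 lower. The acyltransferases went both ways, with Mogat2 at 31.8 TPM in morulae and 0.041 TPM in 4-cell embryos (5.69) and Dgat2 at 41.7 TPM in morulae and 127 TPM in 4-cell embryos (-1.63).

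Of 5 tested uptake genes 2 were higher and 1 lower, and Fabp5 had 535 TPM in morulae and 12.1 TPM in 4-cell embryos (6.27). Of 6 tested regulators 3 were higher, among them Srebf1, the driver of fatty acid synthesis, with 36.3 TPM in morulae and 10.0 TPM in 4-cell embryos (2.16) and Hif1a, the oxygen-sensitive factor, with 9.0 TPM in morulae and 1.93 TPM in 4-cell embryos (2.06). The other 3 were lower, among them the oxysterol receptor Nr1h3 with 10.3 TPM in morulae and 76.5 TPM in 4-cell embryos (-3.17). Of 10 other droplet-bound proteins 3 were higher and 3 lower, among them Rab18 with 84.4 TPM in morulae and 40.9 TPM in 4-cell embryos (1.21) and Pcyt1a, which makes phosphatidylcholine for growing droplets, with 9.85 TPM in morulae and 39.8 TPM in 4-cell embryos (-1.91).

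Across single embryos the members had closest genes that differed between stages. Over 88 morulae and 9815 genes Plin2 was closest to Ppdpf (Pearson 0.737), Idh3a (0.717) and Gstp1 (0.70), and Plin3 to Gss (0.712), Ppp4r1 (0.693) and Ezr (0.668). Over 70 4-cell embryos and 9021 genes Plin3 was closest to the pluripotency gene Pou5f1 (0.806), Lrpap1 (0.768) and Sucla2 (0.758), Plin2 to Smim4 (0.514), Lta4h (0.513) and Rwdd2b (0.486), and Cidea to Tspan9 (0.57), Plin3 itself (0.536) and Slc12a7 (0.487). Hilpda was closest to Bcl2l1 (0.544), Zfp7 (0.523) and Rab11fip3 (0.511) in morulae and to Krtcap2 (0.676), Rpa3 (0.599) and Ppp1r11 (0.59) in 4-cell embryos. In morulae Cidea was closest to Crip1 (0.602), Fam129a (0.587) and Cfl1 (0.576), and Plin5 to Tmem180 (0.561), Tspan3 (0.553) and Tuba4a (0.549), while in 4-cell embryos Plin1 was closest to Aim1l (0.453), Abhd5 (0.434) and Rrp7a (0.419). These embryos pool crosses, annotation sets and numbers of detected genes, so the coefficients are descriptions.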

How the data were processed

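Bulk RNA of SGs, skin, ileum and liver and of single embryos was sequenced. The deposited CPM values of SGs, skin and ileum were made by the authors with Kallisto, those of liver with RSEM, and the deposited TPM values of embryos by the authors with RSEM (genome mm10 and R 4.2 in the submitters' processing notes, versions of the aligners not given in the sources used here). CPM and TPM are not counts, so no count test was run. From each SG and skin file, 27 rows whose gene name had turned into a date were left out.

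Values were analysed in R 4.3.3 with limma 3.58.1 (trend), on log2(value + 0.5), after a filter at 1, in 14 comparisons, with Benjamini-Hochberg adjustment over all tested genes. Script steps were tested on simulated data, where 30.1% of genes changed by 1 and 69.8% of those changed by 2 on the log2 scale were recovered in F0 SGs, and 6.19% and 45.2% in ileum. Single values were also compared by permutation tests, exact or with 100000 resamples. Only in the ileum did every same-numbered pair have a correlation above 0.1, at 0.212 to 0.273 over 3 pairs. Ileum pairs of unlike numbers ran from -0.488 to 0.293. A pairing would thus be read from values only, since no label states it.

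Every member that passed the filter was tested in each comparison, and members given no value for a comparison were not called there. Called genes of the pathway lists are named as examples, drawn from up to 4 of smallest p in each list and comparison. The 3 genes of highest Pearson correlation are named for each member that passed the filter over skins, 4-cell embryos and morulae. The members and lists were chosen with earlier results of these data known. Promoter windows are those of RefSeq on GRCm38.p6, matched by symbol. Windows on chromosome 18, where Cidea lies, were left out, so 9 of 10 members are covered. Alternatives were another pseudocount, no filter or a filter at 5, median ratio scaling, quantile normalization, a replicate block, a Y-linked covariate, the number of genes per embryo, the annotation sets and leaving out each replicate.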

Additional observations from a re-analysis of the deposited data

Results flagged for a closer look

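Among 46 sets of 4 to 10 samples 6 held a member value far from the rest of its group. The cutoff would flag about 1 in 20 sets of normally distributed values. That rate does not hold for sets with many values at 0, so the count cannot be read as more than chance. In F1 CR×CR skin Cidea was at 14.5 CPM in replicate 4 and at 5.1 to 7.45 CPM in the others, and in F2 CR×CR skin Plin2 was at 149 CPM in replicate 1 and at 85.6 to 96.2 CPM in the others. In CR×CR ileum Cideb was at 302 CPM in replicate 1 and at 190 to 201 CPM in the others, the mouse that also held the most Cidec. In CR×CR liver G0s2 was at 138 CPM in replicate 2 and at 86.9 to 94.1 CPM in the others. In CR×GF 4-cell embryos Plin1 was at 32.4 TPM in replicate 8 and at 0 to 4.75 TPM in the others. Cidec was at 22.6 TPM in replicate 4 and at 0 in the others, where any single value above 0 would be flagged.

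The Plin2 difference between GF and CR glands in F0 and that between GF×GF and CR×CR glands in F1 differed by a test of the difference itself. The F1 effect was 0.85 higher on the log2 scale than the F0 effect (limma, adjusted p = 0.0449), and the call was made in 6 of 17 alternatives, with adjusted p up to 0.137. Every F0 GF gland lay below every F0 CR gland, and values overlapped in F1 glands. Ddx3y was at 58.5 to 94.0 CPM in F0 and 1.17 to 4.66 CPM in F1 glands, so generation and Y-linked level cannot be told apart.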

How the results depend on the processing

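Over 1310 alternative values of members 1291 stayed on their side of the threshold, 18 lost a call, 1 gained one and none that was called turned its sign. Of the 1291, 98 of members called in neither fit changed sign. Most of the 1310 values belong to members not called in the main fit, so the 1291 says little of how stable the calls are. In F0 SGs Hilpda kept its call in 13 of 14 alternatives and Plin2 in 8 of 14, and in F1 SGs Hilpda in 6 of 13. In F0 SGs the count of 2 called members was 1 without the filter, 0 with the Y-linked covariate and 1 to 2 when leaving out a replicate. In F1 SGs the count of 1 was 0 without the filter, 0 with the Y-linked covariate and 0 to 0 when leaving out any replicate. In GF×CR morulae the Y-linked covariate called 1 member, Plin3, and between stages the number of genes as a covariate left 2 of 4. The cause was not tested. Counts over all genes moved more. In F0 SGs the 327 called genes were 0 with the Y-linked covariate and 684 without GF replicate 3, and in F1 SGs the 108 were 0 with that covariate. In F1 GF×GF skin the 15 were 7 without the filter, in F1 GF×CR skin the 9 were 2 without GF×CR replicate 2, and in F2 GF×GF skin the 7 were 4 with the Y-linked covariate. Within set B the 515 of RAG×WT 4-cell embryos were 0, with 6 CR×CR embryos left, and the 281 of RAG×WT morulae were 3. In CR×GF 4-cell embryos the 36 were 56 after quantile normalization.

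With the replicate number as a block the members called were 2 in F0 SGs, 1 in F1 SGs and 0 in the other 11 comparisons between crosses, and ileum Cidec was at -1.6 (adjusted p = 0.245). Outside the ileum not every pair of equal numbers had a correlation above 0.1. Over all genes the block called 129 in place of 9 in F1 GF×CR skin, 224 in place of 4 in liver, 3 in place of 36 in CR×GF 4-cell embryos, 133 in place of 3287 in GF×CR morulae and 1474 in place of 281 in RAG×WT morulae. The block changed no member's call.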
